A study of Mus musculus with 6 samples.

Results

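Sterol regulatory element-binding proteins (SREBPs) and the proteins that hold and escort them were followed across 6 mouse mammary libraries. The genes were chosen by name and not by a measured value, though with earlier results of these data known. These were Srebf1 and Srebf2, which encode the factors themselves, and Scap, Insig1 and Insig2. They are 5 of the 17739 genes in the deposited table. All 5 reached an FPKM of at least 1 in all 6 libraries and so were among the 9767 genes tested. FPKM is a fragment number divided by the length of the gene and by the total of the library, so levels of different genes can be set side by side.

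The RNA came from mammary epithelial organoids, fragments of epithelium freed by enzymes from the second and the third glands of FVB mice on lactation day 1. One group was wild type (3 mice) and the other carried a conditional knockout of Nmi, with the genotype Nmi-/- (3 mice), and each mouse gave 1 library. Nmi encodes a partner of Myc and STAT factors that interferon induces, and the study asked how its loss relates to excess growth of the epithelium. The sources used here do not give the promoter that drives the deletion, the deleted exons or the age of the mice.

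SREBPs are made as membrane proteins of the endoplasmic reticulum. SCAP carries them to the Golgi when sterols are scarce, proteases there release the part that enters the nucleus, and INSIG proteins hold SCAP back when sterols are plentiful. SREBP-1 products mainly drive fatty acid and triglyceride genes and SREBP-2 mainly drives genes of cholesterol synthesis and uptake, and both are active in the lactating gland, which makes much of its milk fat on site. An mRNA level says nothing of how much SREBP was cleaved.

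Promoter windows are shown for the genes whose levels moved together over the mice (Srebf1, Scap and Insig1) and, for contrast, for Srebf2. Each is the 250 bases before a transcript start of RefSeq on GRCm38.p6, on the strand of the gene. For Srebf1 the most downstream of its 3 starts is shown and for Scap the second of its 2. Capitals mark matches, on either strand, to TCACNCCA (core of the sterol regulatory element), CCAAT (the NF-Y box), GGGCGG (the Sp1 box) and CACGTG (an E-box). The windows are chr11:60210472-60210721 on the minus strand for Srebf1, chr9:110333106-110333355 for Scap, chr5:28071162-28071411 for Insig1 and chr15:82147019-82147268 for Srebf2, the last 3 on the plus strand.
Srebf1: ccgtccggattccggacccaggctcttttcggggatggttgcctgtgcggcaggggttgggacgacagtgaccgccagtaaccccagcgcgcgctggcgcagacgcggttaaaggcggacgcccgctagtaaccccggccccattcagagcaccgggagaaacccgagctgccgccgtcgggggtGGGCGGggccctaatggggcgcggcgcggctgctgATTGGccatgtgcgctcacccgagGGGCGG
Scap: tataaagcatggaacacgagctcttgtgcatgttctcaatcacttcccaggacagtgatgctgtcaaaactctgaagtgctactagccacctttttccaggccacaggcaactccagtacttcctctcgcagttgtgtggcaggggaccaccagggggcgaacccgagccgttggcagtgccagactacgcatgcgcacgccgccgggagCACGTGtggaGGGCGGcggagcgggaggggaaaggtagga
Insig1: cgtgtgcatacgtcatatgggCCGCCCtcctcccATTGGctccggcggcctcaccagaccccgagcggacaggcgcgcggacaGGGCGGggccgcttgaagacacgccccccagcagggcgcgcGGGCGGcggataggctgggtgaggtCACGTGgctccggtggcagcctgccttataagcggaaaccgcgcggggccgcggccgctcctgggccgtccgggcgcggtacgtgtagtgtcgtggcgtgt
Srebf2: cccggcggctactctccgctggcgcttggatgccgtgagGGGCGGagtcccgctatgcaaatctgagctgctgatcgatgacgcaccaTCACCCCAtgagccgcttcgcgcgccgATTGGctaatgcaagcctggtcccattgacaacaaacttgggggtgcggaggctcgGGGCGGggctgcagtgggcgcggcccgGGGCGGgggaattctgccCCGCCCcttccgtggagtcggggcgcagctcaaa
The Srebf2 window holds the single match to the sterol element core among the windows of these 5 genes, TCACCCCA at -162, counted to the first base of the match from the transcript start. It also holds a CCAAT box on the opposite strand at -135 and Sp1 boxes at -211, -79, -52 and -34. The Insig1 window holds an E-box at -101, Sp1 boxes at -229, -167 and -126 and a CCAAT box at -216. The Scap window holds an E-box at -40 and an Sp1 box at -30, and the Srebf1 window has Sp1 boxes at -65 and -6 with a CCAAT box at -30 between them. Among 32851 windows of the same length, 3.67% held the sterol element core, 33.9% a CCAAT box, 32.7% an Sp1 box and 6.02% the E-box. None of the 4 motifs overlaps another in the windows shown, and a match describes letters, not a bound site. Only these exact patterns were searched, so a window without a match may still hold a variant of the element.

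The libraries differed in composition, within as well as between the genotypes. Of the FPKM sum, 19 milk protein genes took 49.1%, 62.2% and 71.5% in the wild type (replicates 1 to 3) and 68.0%, 64.4% and 77.2% in the knockout, which lowers the FPKM of the other genes by different amounts. Across all genes tested the median log2 fold change was -0.21 as deposited and 0.01 after rescaling to a trimmed mean. Nmi was between 2.32 and 4.60 FPKM in the wild type and between 0.188 and 0.564 in the knockout, which separates the genotypes. Its limma adjusted p was nevertheless 0.372, the smallest value of any gene tested. The test thus did not call even the deleted gene, and a gene that did not pass is not shown to be unchanged. Absolute depth is unknown, and Gapdh, abundant in nearly every cell, is listed at 0 to 0.0769 FPKM, so a low entry can be a failed estimate. All 8 luminal and all 6 basal epithelial markers passed the filter, 3 of 10 adipocyte markers did (Fabp4 and Lipe lead them), and no lymphocyte marker did. Fibroblast markers passed in 5 of 6 cases, with sums of 22.7 to 52.1 FPKM in the wild type and 32.2 to 59.1 in the knockout. Macrophage markers passed in 3 of 8 cases, with sums of 12.5 to 15.5 FPKM in the wild type and 10.0 to 22.0 in the knockout. The adipocyte genes Adipoq and Plin1 were listed at 0 to 0.0957 FPKM and 0 to 0.0191 FPKM. In such bulk samples fewer cells of a type and less RNA per cell cannot be told apart.

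Srebf1, which encodes SREBP-1a and SREBP-1c from alternative starts that a gene-level value does not separate, was measured at 16.2, 22.9 and 30.9 FPKM in wild-type replicates 1 to 3 and at 27.3, 17.1 and 65.9 FPKM in knockout replicates 1 to 3. Knockout replicate 3 stood far above the rest, and the other knockout values fell inside the wild-type range. Mean levels of 23.3 ± 7.39 (wild type) and 36.8 ± 25.7 FPKM (knockout) resulted (SD, n = 3 each). The log2 fold change of FPKM + 1 was 0.46 (SE 0.44, 95% confidence interval -0.50 to 1.42), with an adjusted p of 0.768 in limma. The difference was smaller than the spread between knockout mice, and without knockout replicate 3 it was -0.06. The gene lies at chr11:60199089-60222581 of GRCm38 on the minus strand and meets the end of Rai1 on the other strand.

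Srebf2, which encodes SREBP-2, had 19.4, 25.6 and 17.9 FPKM in the wild-type libraries and 19.1, 30.8 and 18.5 FPKM in the knockout libraries. Replicate 2 was the highest of each genotype, and the remaining 4 libraries lay within 17.9 to 19.4 FPKM (14.6 to 25.4 after trimmed-mean rescaling, where replicate 2 was still the highest of each genotype). The means, 21.0 ± 4.12 and 22.8 ± 6.91 FPKM (SD, n = 3 each), gave a log2 fold change of 0.09 (SE 0.28, 95% confidence interval -0.53 to 0.72, limma adjusted p 0.891). The summed basal markers were also highest in knockout replicate 2 (1063 FPKM against 293 to 777 in the others). Acta2 gave most of that sum (724 FPKM), and Myh11 was highest there too (115 FPKM). As deposited, Krt5, Krt14, Trp63 and Oxtr were instead highest in wild-type replicate 1. Within the wild type the sum was highest in replicate 1 (777 FPKM against 632 in replicate 2), unlike Srebf2. The summed fibroblast markers were, like Srebf2, highest in replicate 2 of each genotype as deposited (52.1 FPKM in the wild type and 59.1 in the knockout). They were lower in wild-type replicate 3 (22.7) than in knockout replicate 3 (51.6). Col3a1 had its highest value in replicate 2 of each genotype (20.3 and 22.5 FPKM), but Dcn was highest in replicate 1 within the wild type (11.3 FPKM). The part of the basal and fibroblast markers in the Srebf2 level was not tested. The sign of the Srebf2 fold change reversed on leaving out wild-type replicate 3 (-0.01) or knockout replicate 2 (-0.13). Srebf2 occupies chr15:82147181-82205379 on the plus strand and hosts the microRNA gene Mir33.

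Scap, the escort, had 12.9, 14.0 and 14.6 FPKM in the wild type. The knockout libraries had 16.3, 12.7 and 20.6 FPKM, so replicates 1 and 3 were above every wild-type library and replicate 2 was below all of them. After trimmed-mean rescaling the levels were 9.72, 12.8 and 15.9 in the wild type and 17.1, 11.7 and 28.3 in the knockout, so replicate 2 then lay within the wild-type range. The means were 13.8 ± 0.881 and 16.5 ± 3.95 FPKM (SD, n = 3 each), with a log2 fold change of 0.22 (SE 0.25, 95% confidence interval -0.34 to 0.78, limma adjusted p 0.770). The gene lies at chr9:110333288-110384950 on the plus strand and shares a stretch with the antisense gene 5830462I19Rik. Strand use in the counting is not stated, so reads of the pair cannot be told apart.

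Insig1 and Insig2 encode the retention proteins, and INSIG1 is itself an SREBP target. Insig1 had 11.3, 26.9 and 53.8 FPKM in the wild type and 30.1, 29.8 and 121 FPKM in the knockout, a 10.7-fold range from wild-type replicate 1 to knockout replicate 3 and the widest of the 5 genes. Knockout replicates 1 and 2 sat close together inside the wild-type range. The means were 30.7 ± 21.5 and 60.4 ± 52.7 FPKM (SD, n = 3 each), and the log2 fold change of 0.88 (SE 0.60, 95% confidence interval -0.44 to 2.19) had a limma adjusted p of 0.768. It was 0.22 without knockout replicate 3 and 1.40 without wild-type replicate 3. Insig1 lies at chr5:28071363-28078662 on the plus strand, with no overlapping gene.

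Insig2 ran the other way. Its FPKM was 12.4, 6.96 and 6.33 in the wild type and 6.91, 7.02 and 3.95 in the knockout, highest where Insig1 was lowest and lowest where Insig1 was highest. The other 4 libraries were within 6.33 to 7.02 FPKM. The means were 8.58 ± 3.36 and 5.96 ± 1.74 FPKM (SD, n = 3 each), with a log2 fold change of -0.44 (SE 0.30, 95% confidence interval -1.10 to 0.22, limma adjusted p 0.768), and -0.17 without wild-type replicate 1. After trimmed-mean rescaling the levels ran only from 5.42 to 9.39, and the fold change was -0.21. The gene lies at chr1:121304353-121332589 on the minus strand and overlaps the predicted gene Gm37174 on the other strand.

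**Figure D1:**
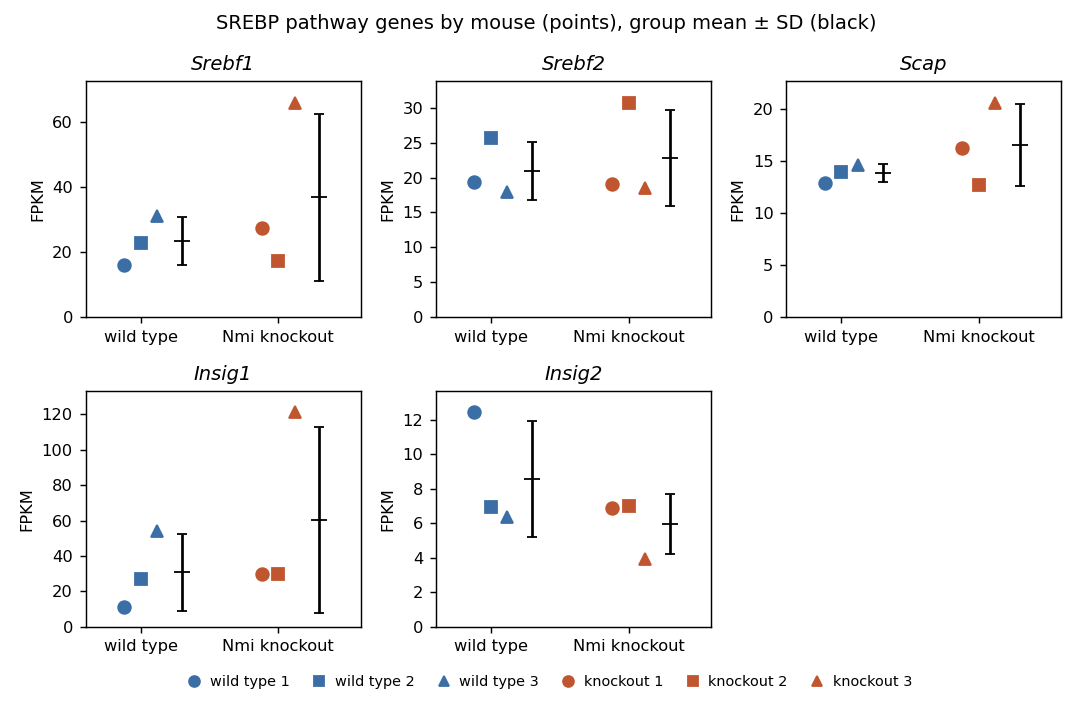
FPKM of each gene (vertical axis, from 0) in the 3 wild-type (blue) and 3 knockout (orange) mice, with marker shapes for replicates 1, 2 and 3 and black bars for the group mean ± SD. The genotypes overlap in every panel, and knockout replicate 3 is the highest library for Srebf1, Scap and Insig1.

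No member passed the test of genotype, at an adjusted p under 0.05, in a table where 0.0% of genes did. At an unadjusted p under 0.05, none of the 5 was called, against 1.33% (130) of the 9767 genes, and none had groups that did not overlap, against 4.61% of all genes. The exact permutation p of each gene lay between 0.4 and 0.7, where 3 against 3 mice allow no p below 0.1. These p-values measure the spread between mice. Relative to the median of all genes, the fold changes were 0.67 for Srebf1, 0.30 for Srebf2, 0.43 for Scap, 1.08 for Insig1 and -0.23 for Insig2, so 4 of the 5 were above it. The confidence intervals leave room for a doubling of Srebf1 or Insig1 as well as for a decrease.

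**Figure D2:**
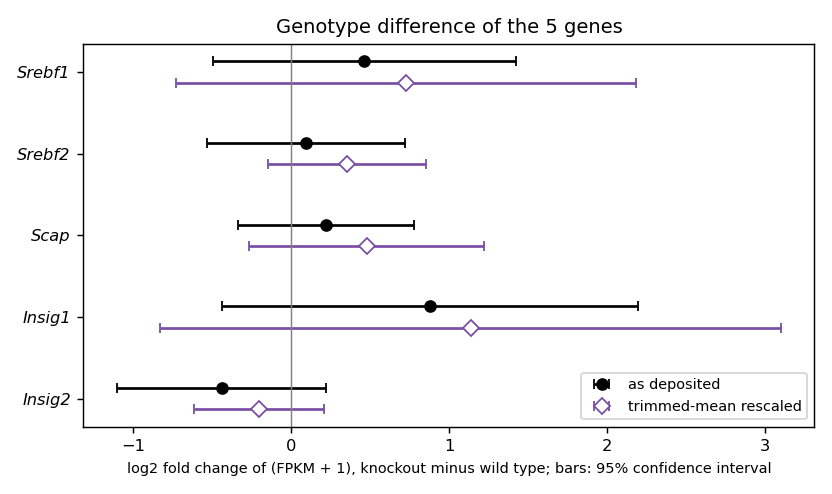
Log2 fold change of FPKM + 1, knockout minus wild type, with its 95% confidence interval (horizontal axis) for each gene, as deposited (black circles) and after trimmed-mean rescaling (open diamonds). Every interval includes 0, and rescaling moves all 5 values upwards, Srebf1 from 0.46 to 0.73 and Insig2 from -0.44 to -0.21.

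Ordered by mean FPKM over the 6 libraries, Insig1 (45.5) came first, followed by Srebf1 (30.1), Srebf2 (21.9), Scap (15.2) and Insig2 (7.27). Insig1 was above Srebf1 in 5 of 6 libraries, but the mean log2 difference of 0.39 ± 0.54 (SD, n = 6) was within its spread. Srebf1 and Srebf2 did not differ beyond their spread (0.31 ± 0.95), and Srebf1 was the higher in 3 of 6 libraries. Srebf2 was above Scap in 5 of 6 libraries (0.52 ± 0.51), and Scap was above Insig2 in all 6 (1.12 ± 0.76), both beyond their spread.

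Ratios within a library are free of its total. The Insig1/Insig2 ratio was 0.910, 3.87 and 8.50 in wild-type replicates 1 to 3 and 4.36, 4.24 and 30.7 in knockout replicates 1 to 3. Wild-type replicate 1 was the one library with more Insig2 than Insig1, and the highest ratio was 33.8 times the lowest. The genotypes overlapped, with a log2 difference of 1.41 and an exact permutation p of 0.4. The difference was 0.47 without knockout replicate 3, 0.53 without wild-type replicate 1 and 2.14 without wild-type replicate 3. The Srebf1/Srebf2 ratio was 0.835, 0.894 and 1.73 in the wild type and 1.43, 0.557 and 3.57 in the knockout. SREBP-1 mRNA thus exceeded SREBP-2 mRNA in wild-type replicate 3 and knockout replicates 1 and 3, and the log2 difference between genotypes was 0.38 with an exact permutation p of 0.7. The difference moved with single libraries: it was -0.29 without knockout replicate 3, 1.05 without knockout replicate 2, 0.71 without wild-type replicate 3, and 0.19 and 0.24 without wild-type replicates 1 and 2.

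**Figure D3:**
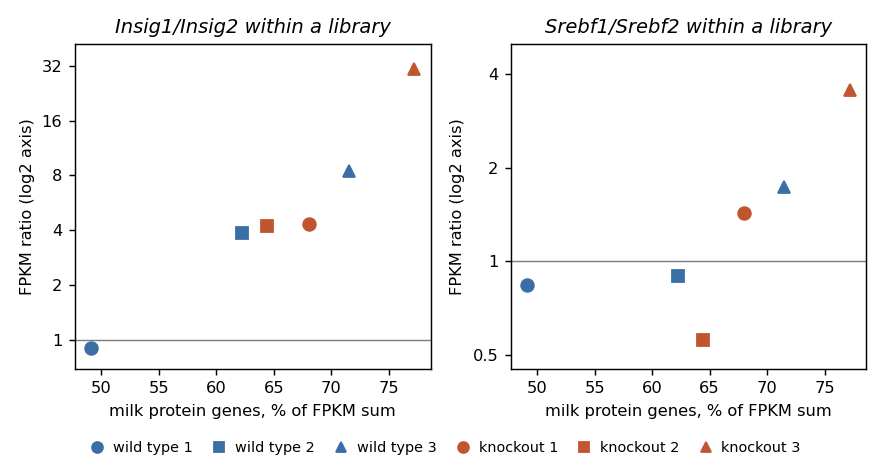
Ratio of FPKM within a library (vertical axis, log2 scale) against the share of the FPKM sum held by milk protein genes (horizontal axis, %), 1 point per mouse, with the grey line at a ratio of 1. The Insig1/Insig2 ratio goes from 0.910 in the library with the lowest milk share to 30.7 in the one with the highest, and the Srebf1/Srebf2 ratio is above 1 in the 3 libraries with the highest milk share.

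Mouse by mouse, Srebf1 went with the genes of fatty acid and triglyceride synthesis. The list holds 25 tested genes, and its mean log2(FPKM + 1) was 3.96, 4.58 and 5.03 in the wild type and 4.99, 4.34 and 5.84 in the knockout. The libraries had the same order for Srebf1 and for the list. Pearson's r over the 6 libraries was 0.98 (exact permutation p 0.0014, Benjamini-Hochberg p 0.0167 over 12 relations, of which 10 are given here) and Spearman's rho was 1.00 (exact permutation p 0.0028, adjusted p 0.0167). Without wild-type replicate 1 and knockout replicate 3, the libraries farthest from the median of Srebf1, r was 0.97. It was 0.99 after trimmed-mean rescaling and 0.98 with the genotype means subtracted, while 3 libraries in a genotype are too few for a correlation of their own.

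Scap and Insig1 showed the same relation and Insig2 the opposite one. For Scap and the fatty acid list r was 0.95 (exact permutation p 0.0056, adjusted p 0.0333), rho was 0.89 (exact permutation p 0.0333, adjusted p 0.1), and r without its 2 farthest libraries, knockout replicates 1 and 3, was 0.90. For Insig1 r was 0.95 (exact permutation p 0.0111, adjusted p 0.0444) and rho was 0.94 (exact permutation p 0.0167, adjusted p 0.0667). The Insig1 relation rests in part on wild-type replicate 1 and knockout replicate 3, as r was 0.61 without them. For Insig2 r was -0.92 (exact permutation p 0.0153, adjusted p 0.0458) and rho was -1 (exact permutation p 0.0028, adjusted p 0.0167). After trimmed-mean rescaling the Insig2 relation no longer passed (r -0.77, exact permutation adjusted p 0.117), and without its 2 farthest libraries it had the other sign there (0.86). The share of milk transcripts moved with all of these values, from 49.1% in wild-type replicate 1 to 77.2% in knockout replicate 3, and its part in the relations was not tested. Some markers of cell types moved with them as well. Krt8, a luminal keratin, went the other way, at 1515, 929 and 647 FPKM in the wild type and 596, 983 and 198 in the knockout, and Krt18, Krt19, Epcam and Cdh1 were likewise highest in wild-type replicate 1 and lowest in knockout replicate 3. For Krt8 the lowest value was still in knockout replicate 3 after rescaling (272 against 625 to 1143). Epcam was then highest in wild-type replicate 2 (441) and lowest in knockout replicate 3 (261). Csn2 and Wap, of the same luminal list, were lowest in wild-type replicate 1 as deposited (54112 and 23414 FPKM). They were highest in knockout replicate 3 (142436 and 54789 FPKM), and Elf5 was highest in knockout replicate 1 (237 FPKM). The summed endothelial markers (6 of 6 tested) ran from 43.8 to 94.0 FPKM in the wild type and from 45.8 to 86.4 in the knockout. As deposited, Pecam1 and Tek were highest in wild-type replicate 1 (33.7 and 2.40) and lowest in knockout replicate 3 (14.5 and 1.22). Emcn was also highest in wild-type replicate 1 but lowest in wild-type replicate 3. Cdh5 (38.8) and Kdr (7.27) were highest in knockout replicate 2 and Vwf in knockout replicate 1 (3.30). After rescaling Pecam1 was highest in knockout replicate 2 (26.9) and lowest in wild-type replicate 3 (16.3). The summed adipocyte markers, nearly all Fabp4, were 684, 524 and 228 FPKM in the wild type and 284, 461 and 167 in the knockout. Lipe did not share that order (10.8, 23.3 and 14.5 in the wild type, 18.5, 17.7 and 7.99 in the knockout). The part of these markers in the relations was not tested.

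Srebf2 had no relation to the fatty acid list that passed. Its r was -0.47 (rho -0.77, exact permutation p 0.367 and 0.103, adjusted p 0.44 and 0.206), -0.58 without wild-type replicate 2 and knockout replicate 2, and 0.43 after trimmed-mean rescaling.

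The cholesterol synthesis list, 21 tested genes, had a narrower range. Its mean was 2.95, 2.97 and 3.02 in the wild type and 3.05, 3.20 and 3.70 in the knockout, so that knockout replicate 3 stood highest. After trimmed-mean rescaling the values were 2.62, 2.87 and 3.12 in the wild type and 3.11, 3.10 and 4.12 in the knockout, with wild-type replicate 1 at the low end and knockout replicate 2 level with knockout replicate 1. No member's relation with it passed on the deposited scale. Pearson's r was 0.80 for Srebf1 (exact permutation p 0.0972, adjusted p 0.146), 0.80 for Scap (exact permutation p 0.0972, adjusted p 0.146) and 0.81 for Insig1 (exact permutation p 0.0444, adjusted p 0.107), with rho of 0.60, 0.43 and 0.77 (exact permutation p 0.242, 0.419 and 0.103, adjusted p 0.363, 0.503 and 0.206). All 3 relations rest largely on knockout replicate 3, since r was -0.17, -0.16 and 0.37 without it. Without wild-type replicate 1 alone r was 0.77, 0.77 and 0.85. Without the 2 libraries farthest from the median of each member r was -0.72, -0.39 and -0.17. After trimmed-mean rescaling they passed, at r of 0.94 each and adjusted exact permutation p of 0.0222, 0.0222 and 0.0083, but r was 0.33, 0.45 and 0.60 without the 2 farthest libraries.

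Srebf2 had no relation to the cholesterol list that passed on either scale. As deposited r was -0.13 (rho -0.14, exact permutation p 0.868 and 0.803, adjusted p 0.868 and 0.876), and -0.26 without replicate 2 of both genotypes. After trimmed-mean rescaling r was 0.55 (adjusted exact permutation p 0.27). For Insig2 r was -0.79 (rho -0.60, exact permutation p 0.124 and 0.242, adjusted p 0.165 and 0.363), and 0.37 without the 2 farthest libraries.

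**Figure D4:**
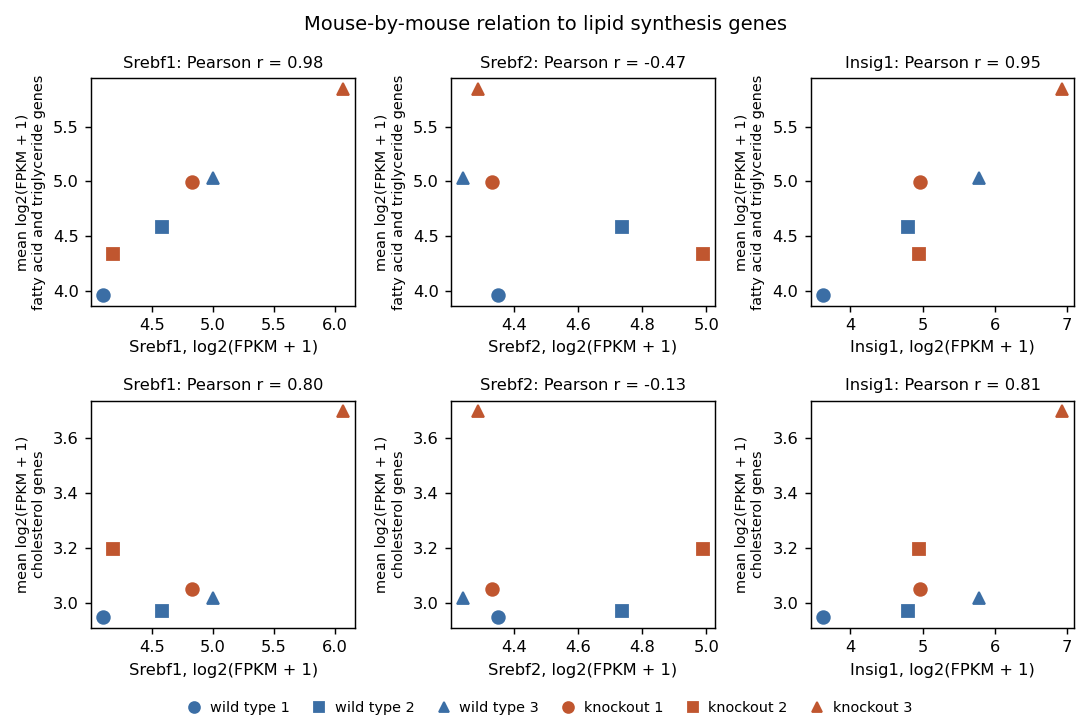
Mean log2(FPKM + 1) of the fatty acid and triglyceride genes (top) and the cholesterol genes (bottom) against log2(FPKM + 1) of Srebf1, Srebf2 and Insig1, 1 point per mouse, wild type in blue and knockout in orange. Srebf1 lines up with the fatty acid list (r = 0.98), while knockout replicate 3 stands apart on the cholesterol list in all 3 panels.

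Gene by gene, relations to Srebf1 differed within the cholesterol pathway. These coefficients describe 6 libraries that share their totals, and carry no test. Of the 21 genes, 8 had an r above 0.8 with Srebf1 (Acat2, Mvk, Pmvk, Mvd, Fdps, Lss, Tm7sf2 and Nsdhl) and 4 (19.0%) had a negative r. Over the 9766 tested genes other than Srebf1, 3.83% were above 0.8 and 85.8% were negative. After rescaling 13 of the 21 were above 0.8 and 0 were negative, beside 16.7% and 50.7% of those genes. Apart from those the naming rule gives (Lss, Pmvk, Cyp51 and Sc5d), the genes of this pathway named here were chosen after their values were seen.

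Hmgcs1, the HMG-CoA synthase, had 13.8, 9.99 and 9.56 FPKM in the wild type and 7.32, 17.6 and 13.7 FPKM in the knockout. As deposited it was highest in knockout replicate 2, but after rescaling in knockout replicate 3 (18.8 against 16.2), and its r with Srebf1 was -0.17 (0.42 after rescaling). Msmo1 and Cyp51, enzymes that demethylate sterols, had an r with Srebf1 of -0.30 and 0.35 (0.51 and 0.73 after rescaling). Acat2, which makes acetoacetyl-CoA, had 2.39, 2.87 and 5.62 FPKM in the wild type and 7.50, 2.35 and 16.5 FPKM in the knockout. It was lowest in knockout replicate 2 as deposited, and its r with Srebf1 was 0.96 (0.97 after rescaling). Sc5d, a late enzyme with the highest level of the pathway, had an r of 0.82 with Srebf2 (0.80 after rescaling). As deposited, both were highest in knockout replicate 2. This r was the highest with Srebf2 among the 21 genes and the only 1 above 0.8 (4.76%), while 11 (52.4%) were negative. After rescaling 0 of the 21 were above 0.8 and 1 was negative. Over the 9766 tested genes other than Srebf2, 391 were above 0.8 as deposited and 482 after rescaling.

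With Srebf1, 19 of the 25 fatty acid and triglyceride genes had an r above 0.8, at a median r of 0.95. Over the 9766 other genes tested the median r with Srebf1 was -0.80 and 3.83% were above 0.8, and after rescaling the median was -0.02 with 16.7% above 0.8. In knockout replicate 3, 19 of the 25 genes had their highest level, and in wild-type replicate 1, 17 had their lowest. Of the 21 cholesterol genes, 16 were likewise highest in knockout replicate 3, but only 5 were lowest in wild-type replicate 1. The same counts over all genes tested were not made. Acly, which makes cytosolic acetyl-CoA, had 35.1, 61.1 and 95.4 FPKM in the wild type and 112, 50.7 and 263 FPKM in the knockout. Scd1, the stearoyl-CoA desaturase, had 605, 1046 and 2062 FPKM in the wild type and 1504, 766 and 2965 FPKM in the knockout. Both genes had the order of Srebf1 in all 6 mice, apart from knockout replicate 1 and wild-type replicate 3, which changed places for Acly. Lpin1, a phosphatidate phosphatase that also restrains SREBP in the nucleus, had its lowest value in wild-type replicate 1 (1.68 FPKM) and its highest in knockout replicate 3 (34.0 FPKM), and its r with Srebf1 was 0.91.

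Insig2 had the pattern of the typical gene on the deposited scale. Its r was above 0.8 with 51.5% of all genes, at a median of 0.81, and after rescaling these were 10.3% and 0.01. Between members, r was 0.96 for Srebf1 with Scap, 0.92 for Srebf1 with Insig1 and 0.83 for Scap with Insig1 (0.99, 0.96 and 0.94 after rescaling). For Insig1 with Insig2 it was -0.97 (-0.85 after rescaling). For Srebf1 with Srebf2 it was -0.53 as deposited and 0.37 after rescaling, so the scaling sets its sign.

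**Figure D5:**
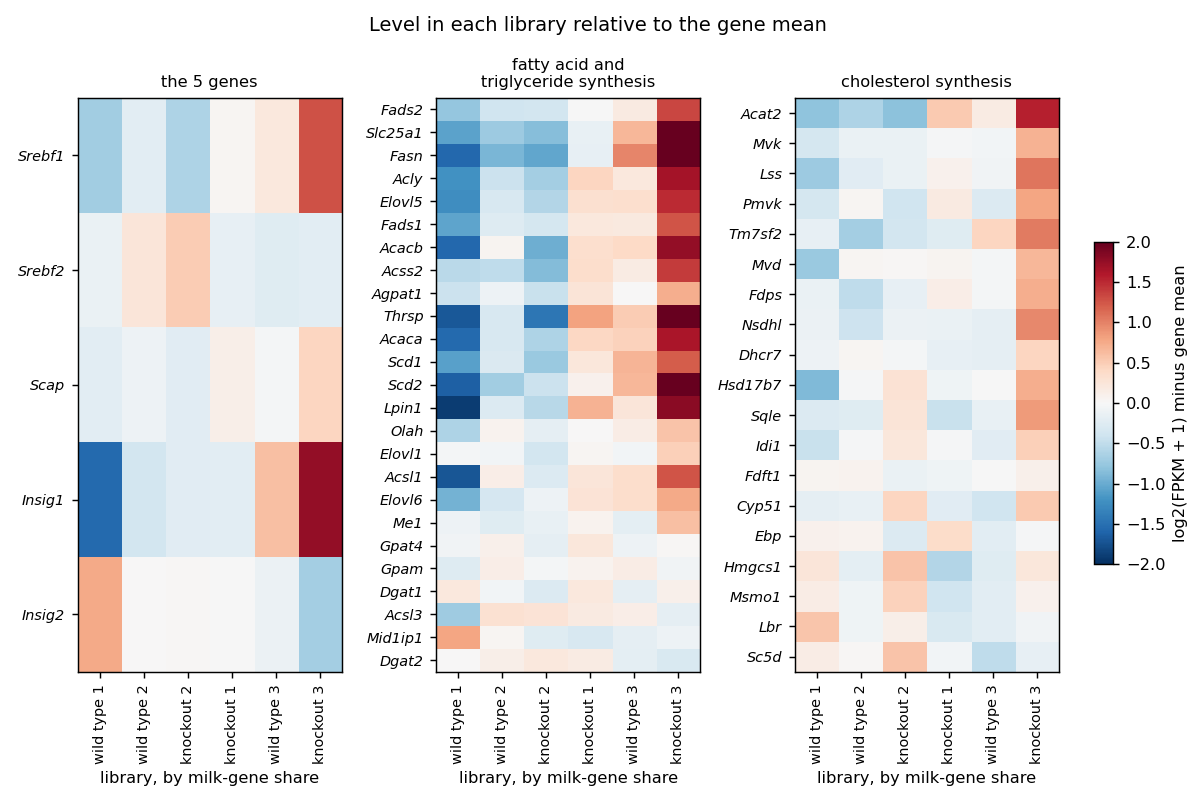
Log2(FPKM + 1) minus the mean of the gene (colour, from blue for low to red for high, limited to 2 in each direction) for the 5 genes and tested lipid synthesis genes, with the libraries ordered by milk-gene share and the list genes by r with Srebf1. Most fatty acid genes share the gradient of Srebf1 and Insig1, and the cholesterol genes lower in the panel (Hmgcs1, Msmo1 and Sc5d) have knockout replicate 2 as their highest library, while Lbr among them is highest in wild-type replicate 1.

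The genes most like each member over the 6 libraries were Pdhb, Gyltl1b and Fam46c for Srebf1 (r 0.999, 0.997 and 0.995), Ttyh3, Rab18 and Snd1 for Scap (0.996, 0.994 and 0.993), and Tvp23b, Dbt and Arhgef37 for Insig1 (0.992, 0.986 and 0.986). Those most like Srebf2 were Uhmk1, Mcam and Tulp4 (0.994, 0.991 and 0.989). For Insig2 they were Tomm34, Polr2m and Pex2 (0.999, 0.999 and 0.998), of which Tomm34 kept 0.997 after rescaling, while Polr2m and Pex2 went to -0.34 and -0.20. These are the closest of 9766 genes, so high values are built into the choice.

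No gene of the machinery around SREBP passed the test of genotype. Of the 12 genes for cleavage and transport to the Golgi, 0 were called at either p, and their median log2 fold change of -0.10 compares with -0.21 for all genes. Mbtps1, the site-1 protease that makes the first cut, had means of 14.4 ± 2.42 (wild type) and 11.1 ± 2.93 FPKM (knockout; SD, n = 3 each). Sec23a and Sar1b, of the COPII coat that carries SCAP, had log2 fold changes of -0.44 and -0.43. Among 13 tested genes for the sterol-regulated degradation of INSIG none was called, at a median of -0.23. Vcp, the ATPase that pulls proteins out of the membrane, had 30.8 ± 8.21 and 26.0 ± 4.48 FPKM (SD, n = 3 each).

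None of 12 nuclear partners and turnover genes was called (median -0.26). Nfya, a subunit of the NF-Y factor that binds CCAAT boxes, had means of 7.77 ± 2.12 (wild type) and 5.39 ± 2.39 FPKM (knockout; SD, n = 3 each). Of 14 tested upstream inputs none was called (median -0.22). Akt1, a kinase of insulin signalling, was at 58.7 ± 4.49 and 59.9 ± 5.35 FPKM, and Prkaa1, a catalytic subunit of AMP-activated kinase, at 4.42 ± 1.90 and 2.33 ± 1.38 FPKM (SD, n = 3 each), with a log2 fold change of -0.74 (SE 0.35) and a limma adjusted p of 0.768. Prkag1, another subunit of that kinase, had groups that did not overlap as deposited, at 12.4 to 17.5 FPKM in the wild type and 9.16 to 11.9 FPKM in the knockout, with a log2 fold change of -0.39 (SE 0.25) and the same adjusted p. After rescaling its groups again did not overlap, with 13.1 FPKM as the lowest wild-type value and 12.6 FPKM as the highest knockout value. It was the only 1 of the 14 genes with groups apart as deposited. Of all genes tested, 4.61% had groups that did not overlap as deposited. The share of all genes after rescaling was not counted, so the rescaled Prkag1 values have no background beside them.

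The lipid synthesis lists had the highest medians of the pathway lists, and no gene in them was called. All 21 cholesterol genes and 24 of 25 fatty acid and triglyceride genes had a log2 fold change above -0.21, with medians of 0.39 and 0.63. Lss, the lanosterol synthase, had 1.83 ± 0.637 and 3.78 ± 2.29 FPKM (SD, n = 3 each; log2 fold change 0.69, limma adjusted p 0.768). Idi1, isopentenyl diphosphate isomerase, had 15.4 ± 2.44 and 21.7 ± 3.94 FPKM. Without wild-type replicate 1 and knockout replicate 3 the medians were 0.12 and -0.11. These lists were chosen with earlier results of these data known, so their direction is not independent evidence.

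Vldlr, the very-low-density lipoprotein receptor, was the one gene at an unadjusted p under 0.05 among 7 tested genes of a list of lipoprotein receptors. Its levels were 3.38, 2.52 and 2.06 FPKM in the wild type and 1.58, 1.76 and 1.50 FPKM in the knockout, without overlap. The log2 fold change of -0.47 had a limma adjusted p of 0.768. Of all 9767 genes tested, 1.33% were under that unadjusted p in limma and 4.61% had groups that did not overlap.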

How the data were processed

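RNA from 6 mouse libraries was analysed from values that the authors deposited as FPKM in 1 table of 17739 gene symbols. The builds mm10 and GRCm38 and the tools TopHat, Cufflinks, SAMtools and FastQC come from the submitters' processing notes. Versions, annotation and strand setting were not given in the sources used here. Because FPKM divides by the library total, abundant milk transcripts lower all other values, and depth and counting intervals cannot be had.

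The 9767 genes that reached an FPKM of 1 in 3 or more libraries were transformed to log2(FPKM + 1) and compared with limma 3.58.1 in R 4.3.3 (intensity trend, two-sided), with Benjamini-Hochberg adjustment over all genes and a threshold of 0.05. Fold changes with the pseudocount of 1 understate those of low genes. Exact permutation tests (two-sided) were run over libraries, and correlations over 6 libraries used all pairings. The scripts were tested on simulated data. Trimmed-mean rescaling dropped 30% of genes on each side, and other alternatives were a sum outside milk genes, a pseudocount of 0.1, no filter and leaving out libraries. The within-library ratios and the motifs were chosen after seeing the data.

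The members and the 19 gene lists (210 symbols) were chosen with earlier results of these data known. Named genes were the members, from each pathway list the 3 with the smallest p and the 3 with the highest FPKM, Nmi, the 2 highest markers per cell type, and the 3 genes most like each member; some genes of the planned set are not reported here, though list summaries and the adjustment over 12 relations include them. Positions are from GENCODE on GRCm38. BLAST 2.17.0 found no copy of a member elsewhere at 95% identity over 200 bases.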

Additional observations from a re-analysis of the deposited data

How the results depend on the processing

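The count of genes past the adjusted threshold was 0 under every alternative except leaving out wild-type replicate 1 and knockout replicate 3 together, where it was 1. Leaving out 1 library at a time, the log2 fold change ran from -0.06 to 0.88 for Srebf1, -0.13 to 0.24 for Srebf2, 0.06 to 0.38 for Scap, 0.22 to 1.40 for Insig1 and -0.61 to -0.17 for Insig2. Signs changed for Srebf1 without knockout replicate 3 (-0.06) and for Srebf2 without wild-type replicate 3 (-0.01) or knockout replicate 2 (-0.13). Without wild-type replicate 1 and knockout replicate 3 together, Srebf1 was at -0.29, Insig1 at -0.34 and Insig2 at 0.060. The cause of these shifts was not tested beyond leaving the libraries out. The correlation of Srebf1 with the fatty acid list stayed between 0.96 and 0.99 with 1 library left out, and that of Srebf2 with the cholesterol list ran from -0.34 to 0.63. On rescaling, Srebf2 changed sign with the cholesterol list (0.55 by trimmed mean, 0.46 by the sum outside milk genes) and with the fatty acid list (0.43 and 0.30). By the sum outside milk genes, Srebf1, Scap and Insig1 also passed with the cholesterol list (exact permutation, adjusted p 0.0389, 0.0389 and 0.0167) and Insig2 did not pass with the fatty acid list (0.0926). The number of genes at an unadjusted p under 0.05 moved from 130 to 25 or 632 on leaving out wild-type replicate 1 or 3, to 1187 or 59 on leaving out knockout replicate 2 or 3, and to 326 with no filter. No paired analysis was possible because the mouse numbers in the labels are not shared between genotypes. Precision is limited by 3 mice per genotype, and by unknown depth for low genes.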

Other observations

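Targets of the liver X receptors, which sense oxysterols and raise Srebf1 transcription, are given here by library. Abca1, which exports cholesterol, had 3.65, 4.34 and 12.5 FPKM in wild-type replicates 1 to 3 and 5.46, 4.29 and 2.36 FPKM in knockout replicates 1 to 3. It was highest in wild-type replicate 3, and lowest in knockout replicate 3 as deposited but in wild-type replicate 1 after rescaling (2.75 against 3.24). Abcg1, another exporter, was also highest in wild-type replicate 3 (2.84 FPKM against 0.452 to 0.916 in the others). It was not tested because it reached 1 FPKM in too few libraries, and it was chosen after its values were seen. Mylip, a ubiquitin ligase, was highest in wild-type replicate 3 and knockout replicate 1 (12.6 and 13.1 FPKM against 5.06 to 8.13). Other targets of the list had different orders as deposited. Apoe was lowest in wild-type replicate 3 (40.2 FPKM) and highest in knockout replicate 1 (63.7 FPKM). Lpcat3 and Pltp were highest in wild-type replicate 1 (26.7 and 6.12 FPKM) and lowest in knockout replicate 3 (9.83 and 3.08 FPKM). Pltp too was chosen after its values were seen. Nr1h3, which encodes the receptor LXR alpha, was listed at 0.241 to 0.734 FPKM. None of the 5 tested genes of that list passed the genotype test, at a median log2 fold change of -0.19.

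Other SREBP targets did not share one pattern. Fabp3, a fatty acid carrier, and Aldoc, an aldolase, were highest in knockout replicate 3 (1097 and 170 FPKM) and lowest in wild-type replicate 1 (174 and 31.4 FPKM). Npc1, which moves cholesterol out of lysosomes, was highest in wild-type replicate 1 (17.3 FPKM) and lowest in knockout replicate 3 (4.82 FPKM). None of the 9 tested genes of that list passed.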
